A study of Mus musculus with 15 samples.

Results

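The 48 genes described here drive or mark the mammalian cell cycle, and they were taken by name from a table of 26061 genes measured in mouse embryonic stem cells (ESCs). All 48 were found, and they were grouped by role into 19 genes of G1 and the G1/S transition, 16 genes of S phase and 13 genes of mitosis. The cells were E14, an ESC line of 129/Ola origin, grown on gelatin without feeder cells in medium with 15% serum and 1000 U/ml of leukaemia inhibitory factor. Every group received a lentivirus with a short hairpin RNA (shRNA) and puromycin from 24 h after infection, and RNA was collected after 3 days of selection. The shRNA of the control group was scrambled (shScr), and those of the other groups were directed against Tet1 (shTet1) or Tet2 (shTet2), genes of enzymes that oxidise methylated cytosine in DNA. Each group had 5 RNA sequencing libraries depleted of rRNA, and 1 shRNA was used per target, so an effect of the shRNA itself and an effect of the lost enzyme cannot be told apart. The labels do not say whether replicates were separate infections, and p-values then measure the spread between these libraries only.

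Progress through the cycle is driven by cyclin-dependent kinases (CDKs) and their cyclin partners. D-type cyclins with CDK4 or CDK6, followed by E-type cyclins with CDK2, phosphorylate the retinoblastoma family of proteins and so release E2F transcription factors, which switch on the genes of DNA replication. Mitotic genes follow later under complexes that bind the cell cycle homology region (CHR) and CCAAT boxes of their promoters. ESCs are known for a short G1 and for high activity of cyclin E and CDK2.

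The letters bound by these regulators were counted in the promoters of each group, and no test between groups was run. RefSeq promoters on GRCm38.p6, each 250 bases before to 50 bases after a gene start, were matched by symbol for 38 of the 48 genes, which gave 44 promoters. The genes without a match were Ccnd1, Ccnd2, Ccne2, Rb1, E2f4, Mcm4, Gmnn, Ccna2, Aurkb and Wee1. E2F letters (TTTCCCGC or TTTGGCGC, on either strand) were present in 6 of 15 S phase promoters (40%), 4 of 19 G1 promoters (21.1%) and 0 of 10 mitotic promoters, against 1.57% of all 32851 promoters. CHR letters (TTTGAA, on either strand) were present in 8 of 10 mitotic promoters (80%), 1 of 15 S phase promoters (6.67%) and 4 of 19 G1 promoters (21.1%), against 17.9% of all promoters. CCAAT, on either strand, was present in 10 of 10 mitotic, 10 of 15 S phase and 8 of 19 G1 promoters, against 37.4% of all. Matches of different motifs were allowed to overlap, and a match describes the letters only. The median number of CpG dinucleotides was 24 in the promoters of the 48 genes and 7 in all promoters. The stretches printed here are the last 100 bases before the gene start. Cdk6 and Rrm1 are shown because their RNA differed between the knockdowns, Mcm6 for an S phase promoter with E2F letters, and Cdc20 and Top2a for mitotic promoters with CHR and CCAAT letters. Capitals mark matches to the E2F, CHR or CCAAT letters.
Cdk6 (chr5:3343793-3343892, plus strand): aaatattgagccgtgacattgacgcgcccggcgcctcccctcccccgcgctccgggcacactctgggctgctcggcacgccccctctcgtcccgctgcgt
Rrm1 (chr7:102441595-102441694, plus strand): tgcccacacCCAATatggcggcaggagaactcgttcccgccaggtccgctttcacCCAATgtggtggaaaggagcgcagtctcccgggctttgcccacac
Mcm6 (chr1:128359706-128359805, minus strand): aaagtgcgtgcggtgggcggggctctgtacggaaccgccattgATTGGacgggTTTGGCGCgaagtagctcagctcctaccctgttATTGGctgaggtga
Cdc20 (chr4:118437344-118437443, minus strand): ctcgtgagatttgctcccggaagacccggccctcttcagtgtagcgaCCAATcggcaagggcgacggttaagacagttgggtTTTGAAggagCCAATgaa
Top2a (chr11:99024190-99024289, minus strand): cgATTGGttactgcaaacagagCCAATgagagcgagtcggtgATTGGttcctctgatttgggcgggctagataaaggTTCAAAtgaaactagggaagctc
The Cdk6 stretch had 13 CpG dinucleotides and none of these letters. The Rrm1 stretch held CCAAT at 2 places.

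Library depth and the knockdowns were checked first. Between 15258291 and 35432425 reads fell in genes per library. Values are on the variance-stabilised scale of the deposited table, which approaches log2 for well-covered genes and on which 4.25 stands for 0 reads. Tet1 lay between 13.68 and 14.25 in shScr and between 11.93 and 12.41 in shTet1, and Tet2 lay between 13.15 and 13.52 in shScr and between 11.12 and 11.61 in shTet2. Each target was therefore below every control library in its own knockdown. Of 9 ESC markers, all had reads in every group, and Pou5f1 averaged 19362 scaled reads in shScr, 17762 in shTet1 and 15313 in shTet2. A principal component with 37.9% of the variance of the deviations from group means set replicates 1 and 2 of every group apart from the others. The labels name no batch for this split.

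The control cells showed how strongly each step of the cycle was expressed. Levels between genes were compared as scaled reads per kb of exon in shScr, given as mean ± SD over 5 libraries. The length was that of all annotated exons of a gene merged. Annotated exons that are little used therefore lower the value, and the order of genes depends on this choice. Among the D-type cyclins, Ccnd1 had 715 ± 287 and Ccnd3 had 617 ± 265 scaled reads per kb, whereas Ccnd2 had 42.7 ± 29.4. The spread of Ccnd1 and of Ccnd3 was larger than the gap between them. Their kinase partners were unequal as well, with 1748 ± 309 for Cdk4 and 73.6 ± 20.6 for Cdk6. Ccne1, an E-type cyclin, had the highest mean among the G1 genes at 2281 ± 697 scaled reads per kb, with values that overlapped those of Cdk4, and Ccne2 had 269 ± 38.1. Cdk2, the kinase of both E-type cyclins, had 519 ± 65.3. The CDK inhibitors among the listed genes were below Cdk2. Cdkn1b had 150 ± 81.9 scaled reads per kb. The INK4 family genes Cdkn2b, Cdkn2a and Cdkn2c had 27.6 ± 11.2, 14.8 ± 5.69 and 7.74 ± 2.52. Cdkn1c, a CDK inhibitor that was not listed, had a higher shScr mean than Cdkn1b on the variance-stabilised scale, at 10.32 ± 0.22 against 9.37 ± 0.62. Cdk2 had 10.33 ± 0.19 on that scale, close to Cdkn1c. That scale is not divided by exon length, and no value per kb was computed for Cdkn1c. The ranges of neighbouring INK4 genes overlapped between libraries. Retinoblastoma family transcripts had 141 ± 41.9 (Rb1), 120 ± 14.1 (Rbl1) and 56.7 ± 16.0 (Rbl2) scaled reads per kb. Of the E2F factors, the repressor E2f4 was highest at 540 ± 128, and the activators E2f3, E2f1 and E2f2 had 130 ± 34.8, 52.8 ± 3.18 and 49.7 ± 16.6. E2f1 and E2f2 differed by less than the spread of E2f2.

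Several replication genes, among them the Mcm genes, were expressed at far higher levels than most G1 regulators, but not all were. The helicase subunits Mcm3, Mcm2, Mcm5, Mcm6, Mcm4 and Mcm7 had 4988 ± 450, 3745 ± 575, 3580 ± 730, 2932 ± 243, 2247 ± 361 and 1887 ± 53.6 scaled reads per kb in shScr. Mcm2 and Mcm5 differed by less than the spread of either. Genes that load the helicase were lower, with 848 ± 166 for Cdt1, 622 ± 59.8 for Orc1 and 393 ± 57.5 for Cdc6. Gmnn, whose product holds Cdt1 back, had 2768 ± 358. The sliding clamp Pcna had 2122 ± 244, and Chek1, the kinase of the replication checkpoint, had 561 ± 60.5. Of the genes that supply nucleotides, the ribonucleotide reductase subunits Rrm1 and Rrm2 had 2580 ± 417 and 1362 ± 73.2, Tyms (thymidylate synthase) had 442 ± 18.9 and Tk1 (thymidine kinase) had 50.8 ± 13.3. By this measure the range of the S phase genes was 50.8 to 4988 scaled reads per kb, and that of the G1 genes 7.74 to 2281. The merged exon length was 6089 bases for Tyms, 5229 for Cdc6 and 5198 for Tk1, beside 2991 for Mcm3.

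Mitotic genes ran from 360 to 6705 scaled reads per kb. Top2a, the topoisomerase that untangles sister DNA, had the highest level of the 48 genes at 6705 ± 777. The kinase Cdk1 had 1257 ± 111 and its cyclins Ccnb1, Ccna2 and Ccnb2 had 2450 ± 184, 2255 ± 298 and 1729 ± 139 scaled reads per kb, while Wee1, the kinase that restrains Cdk1, had 457 ± 61.8. Ccnb1 and Ccna2 had overlapping values. The spindle checkpoint genes Bub1b and Bub1 had 3167 ± 565 and 1219 ± 120, and Cdc20, which activates the anaphase-promoting complex, had 2274 ± 648. Aurka, Plk1 and Aurkb, kinases of the spindle and centromere, had 1426 ± 521, 888 ± 258 and 360 ± 102, and the proliferation marker Mki67 had 1670 ± 200.

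**Figure D1:**
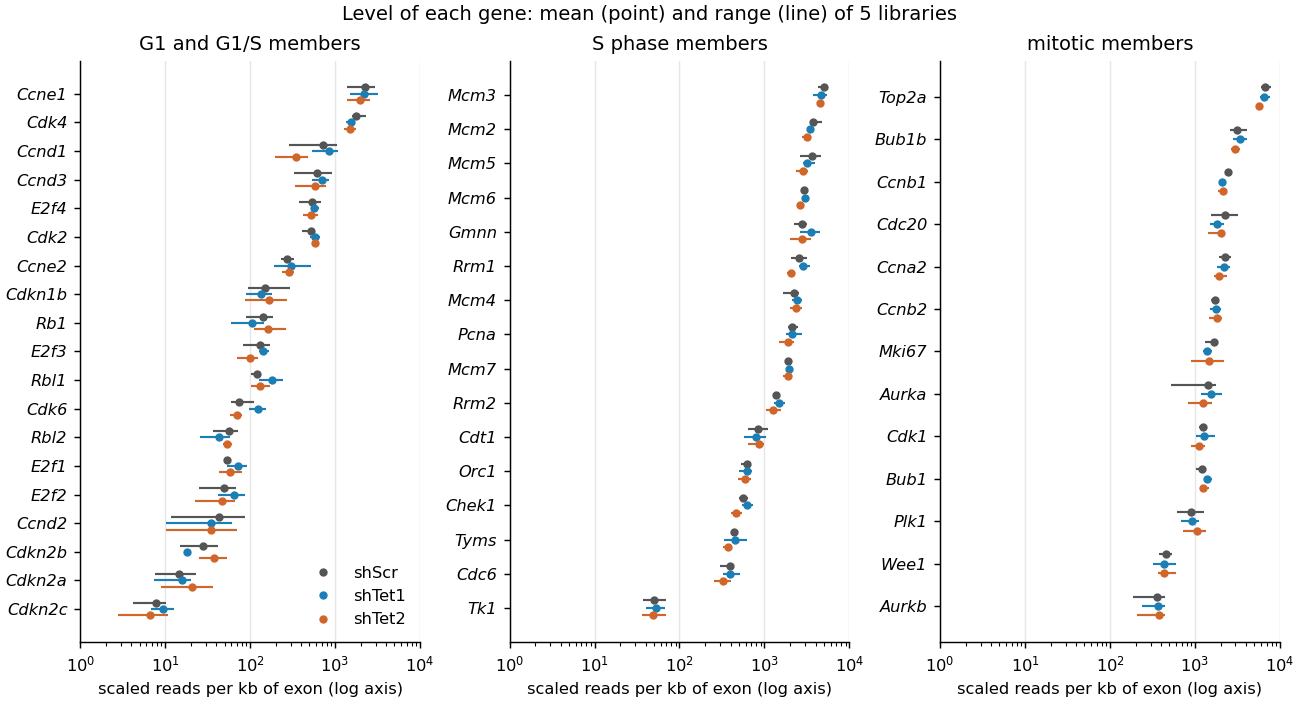
Level of each of the 48 genes in scaled reads per kb of exon (log axis), with G1 and G1/S genes on the left, S phase genes in the middle and mitotic genes on the right. Points are means of 5 libraries and lines run from the lowest to the highest library of shScr (grey), shTet1 (blue) and shTet2 (orange); in shScr, levels run from 7.74 for Cdkn2c to 6705 for Top2a.

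Some of these levels include reads that could belong elsewhere, because reads that fitted several places equally well were assigned to 1 place. The share of 50-base exon stretches found again elsewhere in the mm9 genome was 30.9% for Pcna, 30.8% for Ccnb1, 16.1% for Mcm7, 14.8% for Ccnd3, 14.2% for Tyms, 12.2% for Cdc6 and 12.1% for Cdc20. Plk1, Tk1 and Rrm2 had 9.11%, 7.04% and 6.14%, and the other 38 genes had at most 3.11%, the value of Cdk6. The libraries were directional, but whether counting used strand is not given in the sources used here. An antisense gene had exons over 21.3% of the exonic bases of Ccnd1 (Oraov1), 18.6% of Cdk4 (Tspan31), 17.4% of Ccne2 (Ints8), 15.7% of Ccnd3 (Bysl) and 14.6% of Ccna2 (Exosc9).

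The spread between replicates was largest for G1 genes by its median. The SD within groups, pooled over the 3 groups, had a median of 0.31 over the G1 genes, 0.19 over the S phase genes and 0.22 over the mitotic genes on the log2 scale, beside 0.29 over all 19490 genes tested. It ran from 0.07 for Mcm7 to 0.90 for Ccnd2.

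Part of this spread followed the replicate number, a pattern examined after seeing the data. In a limma F test of the replicate number, 16 of the 48 genes (33.3%) had an adjusted p under 0.05, beside 27.9% of all genes tested. The largest range between replicate numbers was that of Ccnd2, which in replicates 1 to 5 was 8.43, 7.33, 8.01, 6.67 and 9.05 in shScr. In shTet1 it was 7.86, 7.23, 8.30, 6.54 and 8.59, and in shTet2 it was 7.14, 7.34, 8.77, 6.54 and 8.44. Replicate 4 was thus the lowest library for this cyclin in all groups. It was also the lowest in all groups for the centromere kinase Aurkb, at 9.21, 9.51 and 9.33 in shScr, shTet1 and shTet2, where the other libraries lay between 10.09 and 10.41. Mean deviations of replicate 4 from the group means were −0.84 for Ccnd1, −0.68 for E2f2, −0.56 for Ccnd3 and −0.54 for Ccne1, whereas Cdkn1b, a CDK inhibitor, deviated by 0.73. Aurka was lowest in replicate 2 of each group, with a mean deviation of −0.74. The remaining genes of the 16 were Cdc20, Gmnn, Tk1, Cdc6, Rbl2, Cdt1, E2f3 and Orc1. The source of this pattern was not tested.

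**Figure D2:**
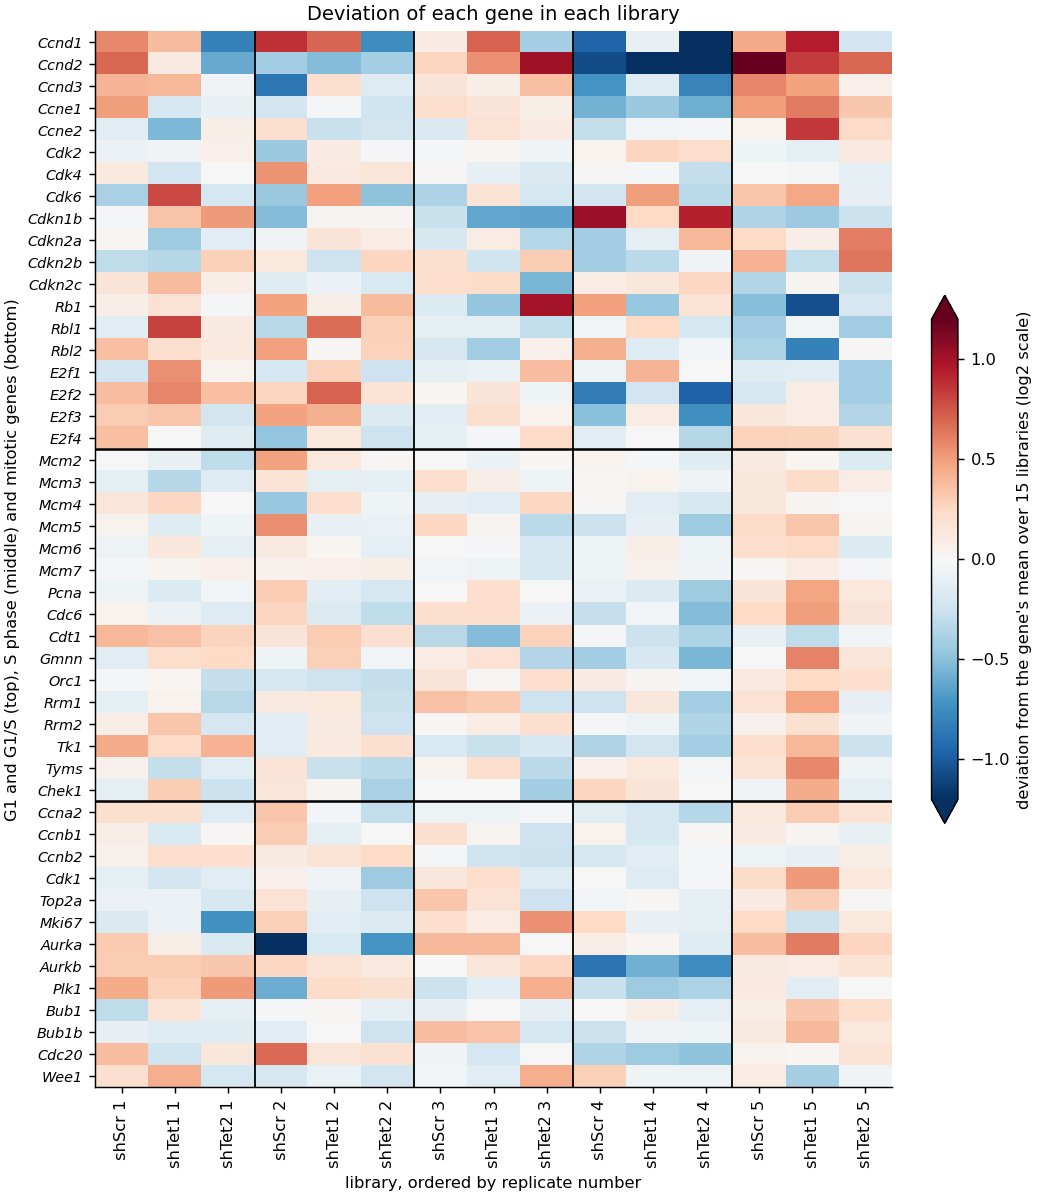
Deviation of each of the 48 genes from its own mean over 15 libraries (log2 scale, red higher, blue lower, colours end at the ends of the bar), with libraries ordered by replicate number and G1, S phase and mitotic genes separated by lines. Replicate 4 is blue in all groups for Ccnd2 and Aurkb, and Cdk6 is red in all 5 shTet1 libraries.

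To ask whether loss of TET1 altered the cell cycle programme, each gene was compared between shTet1 and shScr. None of the 48 genes passed the test (limma on all 15 libraries, Benjamini-Hochberg adjusted p under 0.05), beside 0.0718% of all genes tested (14 of 19490), and limma with voom on recovered reads also called 0. Without adjustment, 3 of 48 genes had a p under 0.05 (6.25%), beside 11.8% of all genes, and all 3 (Cdk6, Rbl1 and E2f1) were G1 genes with higher values in shTet1. Groups did not overlap for 1 gene, Ccnb1, beside 2.62% of all genes. Of the G1 genes, 12 had higher and 7 lower means, with a median difference of 0.11, which was 0.040 without shTet1 replicate 5, 0.056 without shScr replicate 4, 0.070 without shScr replicate 2, 0.038 with array weights and −0.016 within replicates 1 and 2. The S phase genes were split into 8 and 8 with a median of 0.019, and the mitotic genes into 6 and 7 with a median of −0.00094. The median of all genes tested was 0.01. Under median centring the S phase median turned to −0.03, beside −0.04 for all genes. Under quantile normalisation the mitotic median was 0.04, beside 0.003 for all genes. In bulk RNA of cells for which no synchronisation is described, a change in the share of cells in a phase and a change in RNA per cell cannot be told apart.

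Cdk6 (chromosome 5, 3343893 to 3523218, mm9) had the smallest p of the G1 genes. Cdk6 in replicates 1 to 5 was 8.08, 8.03, 8.11, 8.25 and 8.80 in shScr. It was 9.27, 8.97, 8.64, 8.98 and 8.94 in the shTet1 libraries, and 8.26, 7.99, 8.26, 8.15 and 8.38 in those of shTet2. The shTet1 libraries lay above 4 of the 5 shScr libraries, and shScr replicate 5 overlapped them. The difference was 0.70 (95% confidence interval 0.36 to 1.05, SE 0.16), or 69.1% more scaled reads, with a limma adjusted p of 0.0871 and a higher value in 5 of 5 same-numbered pairs. With the replicate number as a block, the adjusted p was 0.0124, and with a term for replicates 1 and 2 against 3 to 5 it was 0.0342. Without shScr replicate 5 the difference was 0.84 (limma adjusted p = 0.0450). Within replicates 1 and 2 the difference was 1.06, and within replicates 3 to 5 it was 0.47.

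Rbl1, a gene of the retinoblastoma family, had the next smallest p of the G1 genes. Rbl1 in replicates 1 to 5 was 9.63, 9.42, 9.64, 9.73 and 9.34 in shScr. The shTet1 libraries had 10.57, 10.43, 9.64, 9.99 and 9.73, and the shTet2 libraries had 9.86, 10.04, 9.46, 9.54 and 9.34. Replicates 1 and 2 of shTet1 were above every other library, and replicates 3 and 5 were within or at the edge of the control range. The difference to shScr was 0.52 (95% confidence interval 0.13 to 0.90, SE 0.18, limma adjusted p = 0.250), and with the replicate block the adjusted p was 0.0410. Blocked counts were 2 of 48 genes (4.17%, Cdk6 and Rbl1), beside 4.8% of all genes. Within replicates 1 and 2 the Rbl1 difference was 0.97, and within replicates 3 to 5 it was 0.22. E2f1 differed by 0.36 (95% confidence interval 0.00 to 0.71, limma adjusted p = 0.420).

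Among the S phase genes, Gmnn and Rrm1 had the smallest p. Gmnn in replicates 1 to 5 was 11.66, 11.73, 11.88, 11.37 and 11.80 in shScr. In shTet1 it was 12.003, 12.08, 11.97, 11.61 and 12.39, and in shTet2 it was 12.03, 11.76, 11.44, 11.25 and 11.94. The groups overlapped through replicate 4, and the difference between shTet1 and shScr was 0.32 (95% confidence interval −0.03 to 0.67, SE 0.17, limma adjusted p = 0.481). Rrm1 differed by 0.16 (95% confidence interval −0.11 to 0.44, limma adjusted p = 0.698).

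Among the mitotic genes the smallest p belonged to Ccnb1 and Cdc20, both with lower means in shTet1. Ccnb1 in replicates 1 to 5 was 13.27, 13.50, 13.39, 13.24 and 13.29 in shScr. It was 13.01, 13.09, 13.22, 13.00 and 13.23 in the shTet1 libraries, and 13.20, 13.20, 12.94, 13.21 and 13.11 in those of shTet2. Every control library was above every library of the knockdowns, although the lowest control value was close to the highest of shTet1. For shTet1 it differed by −0.23 (95% confidence interval −0.46 to 0.00, SE 0.11, limma adjusted p = 0.430), or 14.6% fewer scaled reads. The exact permutation p was 0.00794, the smallest that 5 against 5 libraries can give, and Ccnb1 is also the gene with 30.8% of its stretches found elsewhere. Cdc20 in replicates 1 to 5 was 12.25, 12.56, 11.84, 11.52 and 11.92 in shScr. The shTet1 libraries had 11.64, 12.03, 11.67, 11.46 and 11.90, and the shTet2 libraries had 12.01, 12.07, 11.89, 11.40 and 12.04. The control range held 4 of the 5 shTet1 values, and the difference was −0.28 (95% confidence interval −0.66 to 0.10, limma adjusted p = 0.604).

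To ask the same for loss of TET2, shTet2 was compared with shScr, the control libraries that also served for shTet1. None of the 48 genes passed (limma adjusted p), beside 0.39% of all genes (76 of 19490), and voom on recovered reads also called 0. Without adjustment, 4 of 48 genes had a p under 0.05 (8.33%), beside 11.6% of all genes, and all 4 (Ccnd1, Rrm1, Chek1 and Mcm5) were lower in shTet2. Groups did not overlap for 2 genes (4.17%), Ccnb1 and Tyms, beside 2.7% of all genes. Of the S phase genes, 14 of 16 had a lower mean in shTet2, with a median difference of −0.15 beside 0.04 for all genes tested. The mitotic genes had 9 of 13 lower, with a median of −0.12, and the G1 genes had 11 of 19 lower, with a median of −0.04. Median centring moved the median of all genes from 0.04 to −0.07 and those of the S phase and mitotic genes to −0.26 and −0.23, and under quantile normalisation 11 of 16 S phase genes were lower, with a median of −0.07 beside −0.01 for all genes. Under quantile normalisation the mitotic median was −0.048, with 5 genes higher and 8 lower, and the G1 median was −0.021. The S phase median was below that of all genes under each of these scalings.

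Ccnd1, the D-type cyclin gene on chromosome 7 (152115836 to 152125774, mm9), had the largest difference of the 48 genes in this comparison. Ccnd1 in replicates 1 to 5 was 11.69, 11.99, 11.21, 10.15 and 11.56 in shScr. In shTet1 it was 11.49, 11.81, 11.82, 11.02 and 12.05, and in shTet2 it was 10.30, 10.35, 10.70, 9.62 and 10.88. Replicate 4 was lowest in every group, and without it no shTet2 value reached the shScr range. The difference was −0.95 (95% confidence interval −1.56 to −0.33, SE 0.29), or 50.9% fewer scaled reads, with a limma adjusted p of 0.174. Without shScr replicate 4 the difference was −1.24 (limma adjusted p = 0.0412). It was −1.51 within replicates 1 and 2 and −0.57 within replicates 3 to 5.

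E2f3, an activator of replication genes, was the other G1 gene with a small p. E2f3 in replicates 1 to 5 was 9.57, 9.75, 9.14, 8.76 and 9.40 in shScr. It was 9.59, 9.69, 9.46, 9.35 and 9.36 in the shTet1 libraries, and 9.04, 9.10, 9.31, 8.53 and 8.91 in those of shTet2. Values of shTet2 overlapped those of shScr, and the difference was −0.34 (95% confidence interval −0.72 to 0.03, SE 0.18, limma adjusted p = 0.487).

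Rrm1 and Chek1 led the S phase genes. Rrm1 (chromosome 7, 109590209 to 109618285, mm9) encodes the large subunit of ribonucleotide reductase, the enzyme that makes deoxyribonucleotides. Rrm1 in replicates 1 to 5 was 13.16, 13.38, 13.62, 13.02 and 13.44 in shScr. The shTet1 libraries had 13.31, 13.39, 13.58, 13.40 and 13.74, and the shTet2 libraries had 12.94, 13.00, 13.02, 12.86 and 13.17. The values of shTet2 and shScr overlapped. The difference to shScr was −0.32 (95% confidence interval −0.60 to −0.05, SE 0.13, limma adjusted p = 0.333). Chek1 in replicates 1 to 5 was 11.20, 11.46, 11.31, 11.57 and 11.27 in shScr. In shTet1 it was 11.61, 11.35, 11.31, 11.47 and 11.76, and in shTet2 it was 11.06, 10.92, 10.89, 11.31 and 11.20. Chek1 values of shTet2 and shScr overlapped as well, with a difference of −0.28 (95% confidence interval −0.55 to −0.02, SE 0.13, limma adjusted p = 0.394). The other S phase gene at this level was the helicase subunit Mcm5, at −0.33 (limma adjusted p = 0.404). Tyms had the 5 shTet2 values below the 5 shScr values, with a difference of −0.27 (limma adjusted p = 0.520, exact permutation p = 0.00794), and 14.2% of its stretches were found elsewhere.

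Top2a and Ccnb1 had the smallest p of the mitotic genes. Top2a in replicates 1 to 5 was 15.72, 15.96, 16.12, 15.75 and 15.88 in shScr. It was 15.72, 15.69, 15.95, 15.80 and 16.08 in the shTet1 libraries, and 15.59, 15.54, 15.54, 15.68 and 15.80 in those of shTet2. Only shTet2 replicate 5 reached into the control range. The difference was −0.26 (95% confidence interval −0.52 to 0.01, SE 0.13, limma adjusted p = 0.464). For Ccnb1 the difference was −0.20 (95% confidence interval −0.43 to 0.02, limma adjusted p = 0.501), with the exact permutation p again at 0.00794.

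**Figure D3:**
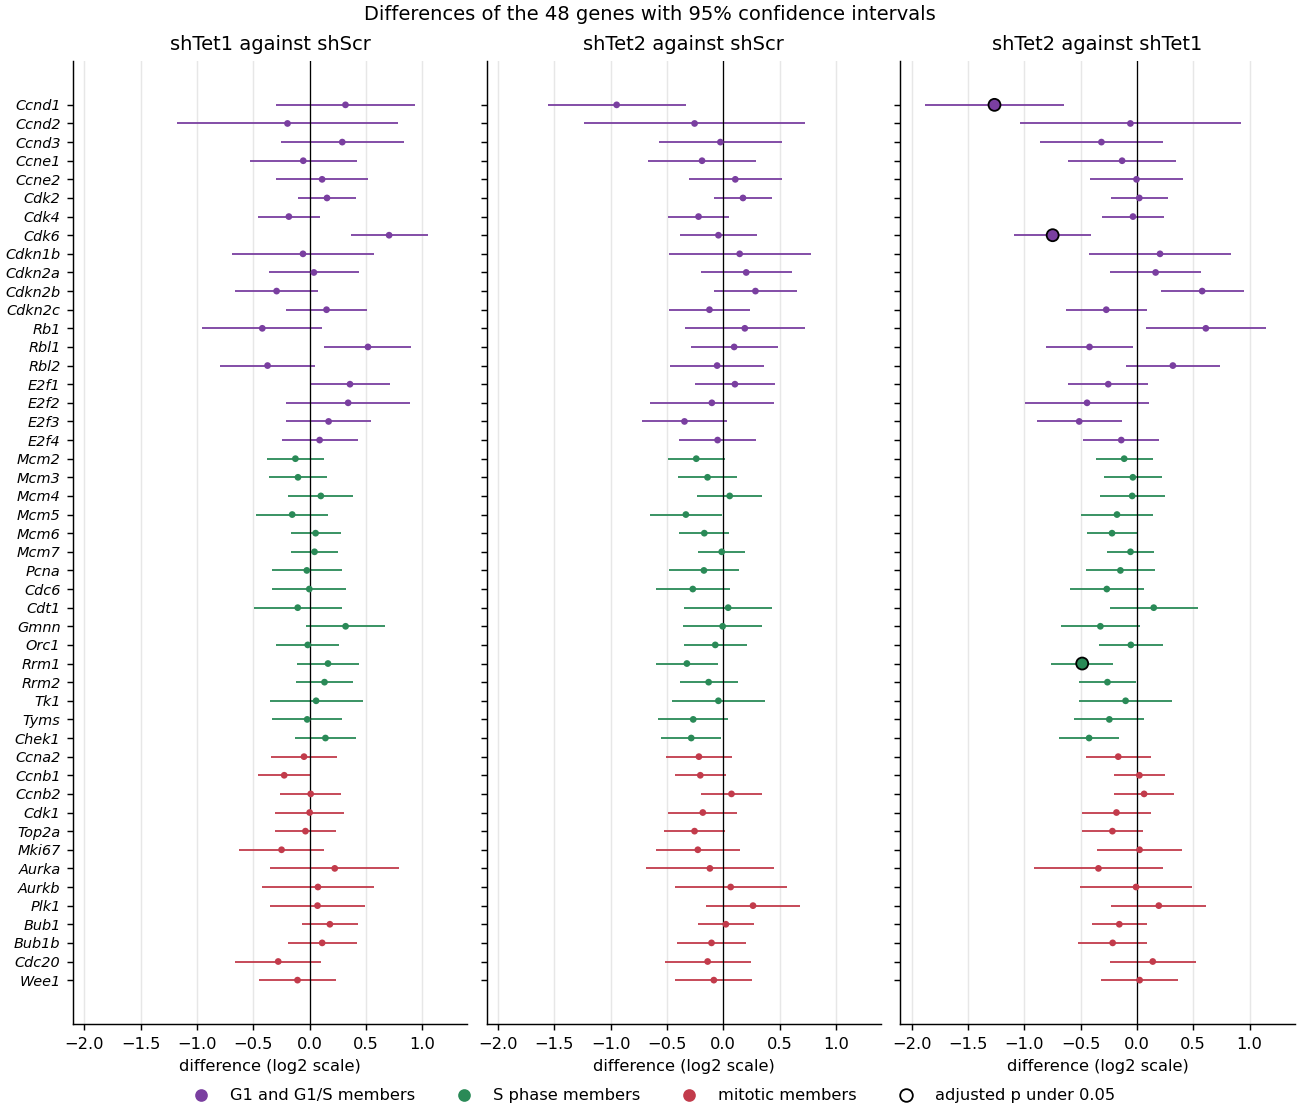
Differences of the 48 genes in the 3 comparisons (log2 scale) with 95% confidence intervals from limma, coloured by group of genes, and with a ring where the adjusted p was under 0.05. Rings are present only for Ccnd1, Cdk6 and Rrm1 in shTet2 against shTet1, at −1.26, −0.75 and −0.49, and most green S phase points lie below 0 in both comparisons with shTet2.

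Both knockdowns were then compared directly, with the same libraries as before, which tests whether they differed from each other. Cdk6, Ccnd1 and Rrm1 were lower in shTet2 than in shTet1, and none of the 48 genes was called higher (limma, Benjamini-Hochberg adjusted p under 0.05). These 3 of 48 (6.25%) stand beside 4.24% of all genes, or 1.36% counting only genes lower in shTet2, and voom on recovered reads called 3 as well. Without adjustment, 9 of 48 genes had a p under 0.05 (18.8%, 2 higher and 7 lower) beside 15.7%, and groups did not overlap for 7 of 48 (14.6%) beside 6.04%. Of all 827 genes called, 561 were higher in shTet2, and under median centring 437 of 764 were. Lower means were found for 15 of 16 S phase genes, with a median of −0.16 beside 0.01 for all genes. Within replicates 1 and 2, 10 of the 16 were lower and 6 higher (median −0.13). Within replicates 3 to 5, 13 were lower and 3 higher (median −0.25). Of the G1 genes, 13 of 19 had lower means over all libraries, with a median of −0.13. The mitotic genes were split into 6 higher and 7 lower with a median of −0.01, which turned to 0.03 under quantile normalisation. By library, the median deviation of the 16 S phase genes from their means ran from −0.28 to −0.02 in shTet2, from −0.03 to 0.28 in shTet1 and from −0.03 to 0.14 in shScr.

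The Cdk6 difference between the knockdowns was −0.75 (95% confidence interval −1.09 to −0.41, SE 0.16, limma adjusted p = 0.0115), or 43.9% fewer scaled reads in shTet2. All 5 shTet2 values were below the 5 shTet1 values (exact permutation p = 0.00794). Against shScr, shTet2 differed by −0.04 (95% confidence interval −0.39 to 0.30). The call held in 15 of 15 fits that each left out 1 library, with limma adjusted p between 0.00488 and 0.0399. Leaving out a shScr library does not change this difference, and every fit without a shTet1 or shTet2 library kept the call. The call was lost, at −0.99 and −0.59, when only replicates 1 and 2 or only replicates 3 to 5 were fitted. The first of these fits called 0 of 19490 genes and the second 143. The loss in the first is therefore not particular to Cdk6.

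For Ccnd1 the knockdowns differed by −1.26 (95% confidence interval −1.88 to −0.65, SE 0.29, limma adjusted p = 0.0169), or 58.5% fewer scaled reads in shTet2. Its highest shTet2 value of 10.88 lay just under the lowest shTet1 value of 11.02 (exact permutation p = 0.00794). Without shTet2 replicate 4, the library of lowest Ccnd1 and of greatest depth (35432425 reads), the difference was −1.08 and the adjusted p 0.0502. The difference was −1.32 within replicates 1 and 2 and −1.23 within replicates 3 to 5, neither past the threshold. No gene of the whole table passed within replicates 1 and 2. Reads of Oraov1, on the opposite strand over 21.3% of Ccnd1, cannot be told apart from those of Ccnd1 if strand was not used.

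The Rrm1 difference between the knockdowns was −0.49 (95% confidence interval −0.76 to −0.21, SE 0.13, limma adjusted p = 0.0416), or 28.9% fewer scaled reads in shTet2. All shTet2 values were below all shTet1 values (exact permutation p = 0.00794). This call was the least stable of the 3. It was kept in 6 of 15 fits that left out a library, with limma adjusted p up to 0.1002. It was lost without shScr replicate 5, shTet1 replicate 2, 3, 4 or 5 or shTet2 replicate 1, 2, 3 or 4. Leaving out a shScr library does not change this difference. Among fits without a library of the compared groups, only those without shTet1 replicate 1 or shTet2 replicate 5 kept the call. The difference ran from −0.53 to −0.42 over the 15 fits. The call was also lost without a variance trend, under median centring and within either set of replicates. Within replicates 1 and 2, no gene of the whole table passed.

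Markers of cell state also differed between the knockdowns. The scaled reads of 9 ESC markers summed to 93676 to 103827 in shTet1 and 74682 to 85470 in shTet2, with 84453 to 94803 in shScr, and Fgf4 was 1 of 9 called lower in shTet2 than in shTet1. Those of 9 markers of the 2-cell-like state, such as the Zscan4 genes, summed to 3479 to 16650 in shTet1, 34310 to 57847 in shTet2 and 17266 to 26694 in shScr, and 9 of 9 were called higher in shTet2 than in shTet1. Against shScr, limma called 0 of these 9 in shTet1 and 1 in shTet2, and 0 of the ESC markers in either knockdown. The part of these states in the Cdk6, Ccnd1 and Rrm1 results and in the lower S phase medians was not tested. Sums of 10 primitive endoderm markers overlapped (6873 to 9292 in shTet1, 5522 to 10223 in shTet2). In shTet2, 8 of 10 had lower means than in shTet1 and 9 of 10 lower than in shScr, with median differences of −0.41 and −0.64. In shTet1, 10 of 10 had lower means than in shScr, with a median difference of −0.23. None of the 10 was called by limma (0 in each comparison), and their part in these results was not tested. Trophoblast, fibroblast and neural markers summed to at most 239, 315 and 1602 scaled reads in any library, and Tpbpa (trophoblast) and Lum (fibroblast) were at 0 in all libraries. In shTet2 against shTet1, 1 trophoblast and 1 neural marker were called higher, and 0 of either kind were called in shTet2 against shScr.

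Some genes missed the threshold although their libraries separated. Values of Chek1, E2f3, Mcm6 and Cdkn2b did not overlap between the knockdowns. Chek1 differed by −0.42 (95% confidence interval −0.69 to −0.16, SE 0.13, limma adjusted p = 0.0714), and E2f3 by −0.51 (95% confidence interval −0.89 to −0.14, SE 0.18, limma adjusted p = 0.135). Cdkn2b, an inhibitor of CDK4 and CDK6, was higher in each shTet2 library. Its values in replicates 1 to 5 were 5.77, 5.87, 5.87, 5.79 and 5.82 in shTet1 and 6.40, 6.37, 6.42, 6.08 and 6.76 in shTet2, with 5.81, 6.25, 6.31, 5.70 and 6.53 in shScr. The difference was 0.58 (95% confidence interval 0.21 to 0.95, SE 0.18, limma adjusted p = 0.0726) for a gene with 25.1 scaled reads on average in shTet1 and 52.1 in shTet2. Mcm6 had the smallest such difference, at −0.22 (limma adjusted p = 0.323). The remaining genes at an unadjusted p under 0.05 were Rb1 at 0.61, Rbl1 at −0.42 and Rrm2 at −0.26, with limma adjusted p of 0.229, 0.262 and 0.308.

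**Figure D4:**
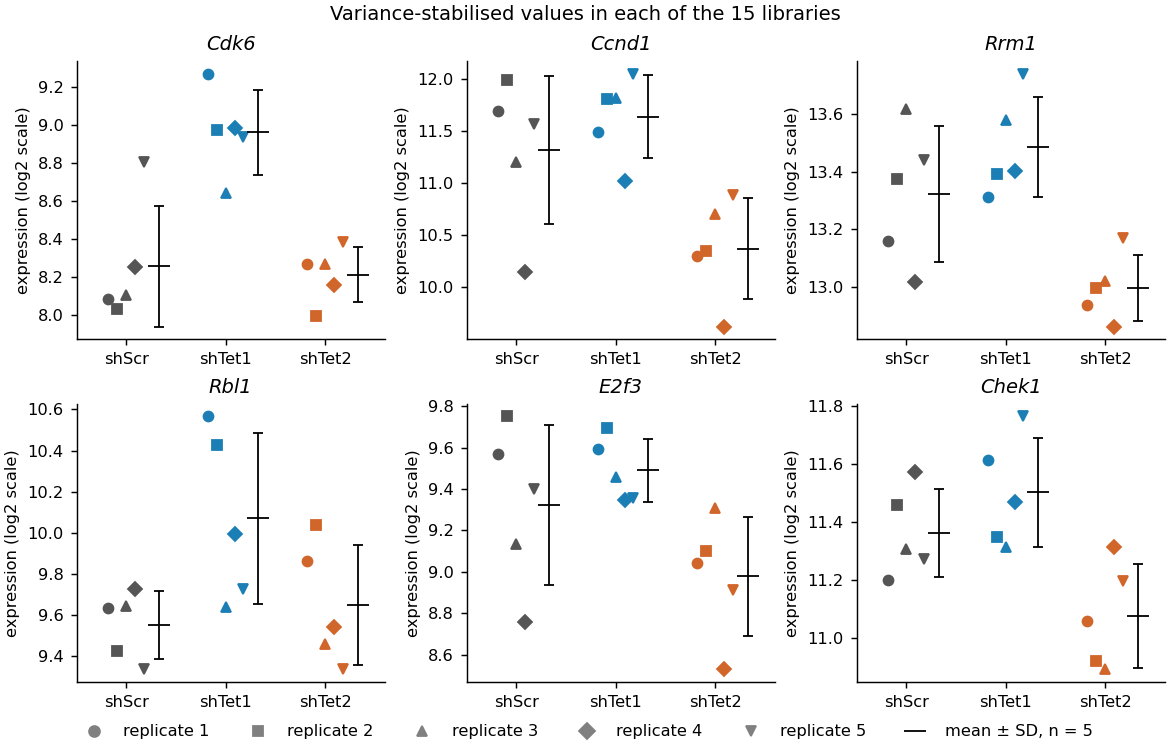
Variance-stabilised values (log2 scale) of Cdk6, Ccnd1, Rrm1, Rbl1, E2f3 and Chek1 in each of the 15 libraries, with marker shapes for the replicate number and bars for mean ± SD of 5 libraries. The shTet2 values of Cdk6, Ccnd1, Rrm1, E2f3 and Chek1 all lie below the shTet1 values, and the diamonds of replicate 4 are the lowest Ccnd1 points of each group.

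Fitted with the replicate number as a block, this comparison called 8 of 48 genes (16.7%) beside 11.2% of all genes. They were the 3 already called, with Chek1 (limma adjusted p = 0.0152), Cdkn2b (0.0139), E2f3 (0.0147), E2f2 (0.0177) and Rb1 (0.0497). E2f2 differed by −0.44 and was lower in 5 of 5 pairs, from 8.74, 8.85, 8.30, 7.92 and 8.23 in shTet1 to 8.51, 8.31, 8.09, 7.17 and 7.73 in shTet2. The Rb1 difference of 0.61 was uneven, at 0.06 within replicates 1 and 2 and 0.98 within replicates 3 to 5.

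Of the mitotic genes, Top2a and Bub1b had the smallest p in this comparison, and both missed the threshold. Bub1b in replicates 1 to 5 was 13.62, 13.58, 14.08, 13.46 and 13.82 in shScr. The shTet1 libraries had 13.57, 13.71, 14.06, 13.67 and 14.11, and the shTet2 libraries had 13.57, 13.47, 13.50, 13.66 and 13.85. The groups overlapped, and the difference was −0.21 (95% confidence interval −0.52 to 0.09, limma adjusted p = 0.550). Top2a differed by −0.22 (95% confidence interval −0.49 to 0.05, limma adjusted p = 0.462).

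Other genes of the same processes were examined from lists of 22 further G1 genes, 45 further replication genes and 40 further mitotic genes, all of which were tested. In shTet1 against shScr and in shTet2 against shScr, limma and voom on recovered reads called 0 of these 107 genes. At an unadjusted p under 0.05, limma had 3 higher and 7 lower in shTet1, and 0 higher and 6 lower in shTet2, 4 of them replication genes, beside 11.8% and 11.6% of all genes. In shTet2 against shTet1, 1 gene of each list was called, 3 of 107 in all, beside 4.24% of all genes. Rfc1, the large subunit of the complex that loads PCNA onto DNA, fell from 13.00 ± 0.08 in shTet1 to 12.54 ± 0.20 in shTet2 (SD, n = 5 each), with 13.01 ± 0.13 in shScr. Its difference of −0.46 had an SE of 0.12 and a limma adjusted p of 0.0334. The centrosomal kinase Nek2 was 11.77 ± 0.08 in shTet1 and 11.31 ± 0.09 in shTet2, a difference of −0.46 (SE 0.13, limma adjusted p = 0.0494), with 11.39 ± 0.28 in shScr. Cdkn1c, an imprinted CDK inhibitor, was 9.34 ± 0.52 in shTet1 and 10.11 ± 0.33 in shTet2, a difference of 0.77 (SE 0.21, limma adjusted p = 0.0494). Its shScr mean of 10.32 ± 0.22 was above both. These calls were near the threshold. Nek2 did not pass under median centring (limma adjusted p = 0.0526) or quantile normalisation (0.0745), and Cdkn1c did not under median centring (0.127). When each of the 15 libraries was left out in turn, Rfc1 passed in 8 fits, Cdkn1c in 3 and Nek2 in 2, with limma adjusted p of up to 0.101, 0.141 and 0.121. Leaving out a shScr library does not change these differences between the knockdowns. The medians of the further replication genes were 0.0035 in shTet1 against shScr, −0.12 in shTet2 against shScr and −0.10 in shTet2 against shTet1, and in the last of these 39 of 45 were lower. That count was 32 of 45 under quantile normalisation (median −0.049), 22 of 45 within replicates 1 and 2 (median 0.0053) and 42 of 45 within replicates 3 to 5 (median −0.19). Those of the further mitotic genes were −0.07, −0.07 and −0.00015, and those of the further G1 genes −0.0067, −0.05 and −0.05. Under quantile normalisation the median of the further mitotic genes in shTet2 against shScr turned to 0.01, and that of the further G1 genes to 0.01.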

How the data were processed

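RNA of 15 E14 libraries, 5 per group by the labels, was compared. The authors trimmed reads with Trim Galore 0.3.3, aligned them to mm9 with Tophat 2.0.9 (the labels list TopHat2), counted them per gene in Seqmonk and deposited DESeq2 variance-stabilised values on a log2 scale. Because these are not counts, limma 3.58.1 in R 4.3.3 (lmFit, eBayes with trend) was run on them in 1 fit of the 15 libraries, two-sided and with no term but the group, for 19490 genes above the table minimum in at least 5 libraries. P-values were adjusted by Benjamini-Hochberg over these genes with a threshold of 0.05. All 48 genes passed this filter. For single genes a two-sided exact permutation test was added. Undoing the transformation gave whole reads (tolerance 0.01) for 100% of values above the minimum, and reads divided by the scaling factor of the library are called scaled reads. Counting error alone is small for genes with many reads, and replicate spread sets the precision there. It is not small for Cdkn2a, Cdkn2b and Cdkn2c, which averaged 17.3, 38.5 and 20.8 scaled reads in shScr. No column of the table was without a sample (0).

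Exon lengths, positions and overlaps came from GENCODE vM1 on mm9, and promoters from RefSeq on GRCm38.p6, whose coordinates were not converted. Values by library are given for called genes and, in each group of genes and comparison, for the 2 genes with the smallest unadjusted p, and other genes of the process lists are named where called. Further genes outside this rule (E2f1, Mcm5, Tyms, Cdkn2b, Mcm6, E2f2, Rb1, Rbl1, Rrm2 and Ccnd2 in some comparisons) were added after their values were seen. The process lists held 108 genes, of which 107 were found; Ticrr was not matched. The 48 genes, the lists and the tests were chosen with earlier results of these data known.

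Libraries of the same number were correlated across genes after subtraction of group means, which gave 0.374 to 0.657 for shTet1 with shScr and 0.330 to 0.731 for the knockdowns with each other. The number was therefore taken to pair libraries in these comparisons. Between shTet2 and shScr, replicate 3 gave 0.00789 and the other numbers 0.400 to 0.769. Not every pair passed 0.1, and no pairing was assumed there. The replicate block was still 1 fit of all 15 libraries. Its p-values for the other comparisons therefore also rest on the shared numbers of shTet2 and shScr. The split of replicates 1 and 2 from 3 to 5 can add to these correlations, and its share was not tested. Alternatives were the filter, the variance trend, array weights, the groups fitted, quantile normalisation, median centring, voom on recovered reads, the replicate block, the split of replicates 1 and 2 from 3 to 5, and leaving out each library. The fit was tested on simulated data.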

Additional observations from a re-analysis of the deposited data

Results flagged for a closer look

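In each group of 5 libraries, a library was marked when its gap to the nearest other library exceeded 0.71 of the range of the group (Dixon's critical value at 95%). Among the 48 genes in 3 groups, 12 of 144 sets had such a library, where about 1 in 20 is marked by chance. All values are on the variance-stabilised log2 scale. In shScr, replicate 2 stood apart for 4 genes: Cdk2 at 10.001, below the other libraries, Aurka at 10.42, also below, and Cdk4 at 12.87 and Mcm2 at 13.97, both above. Replicate 5 of shScr was high for Cdk6 at 8.80, against 8.03 to 8.25 in the other control libraries, and replicate 1 of shScr was low for Mki67 at 13.70. Aurkb was low in replicate 4 of every group, at 9.21 in shScr, 9.51 in shTet1 and 9.33 in shTet2. In shTet2, replicate 5 was high for Bub1 at 12.66, replicate 4 was low for Cdc20 at 11.40, and replicate 3 was high for Wee1 at 10.21.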

How the results depend on the processing

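The number of the 48 genes called depended on how replicates were treated. With the replicate block it was 2 in shTet1 against shScr, 1 (Ccnd1, limma adjusted p = 0.00356) in shTet2 against shScr and 8 in shTet2 against shTet1, beside 0, 0 and 3 without it, and no call was lost. Over all genes the block gave 935, 840 and 2178 calls beside 14, 76 and 827. Between shTet2 and shScr, libraries numbered 2 and 3 did not correlate best with their own number, nor did number 2 between shTet1 and shScr or number 1 between the knockdowns. A term for replicates 1 and 2 against 3 to 5 gave 1 call in shTet1 against shScr (Cdk6), and 264, 266 and 1263 over all genes. Array weights gave 5 calls in shTet2 against shTet1, and 56, 283 and 1246 over all genes. Within replicates 3 to 5 there were 0 calls of the 48 and 143 of all genes in that comparison. Leaving out each library in turn gave 0 to 1 (without shScr replicate 5), 0 to 1 (without shScr replicate 4) and 1 to 3 (1 without shTet2 replicate 4) calls of the 48, and 1 to 171, 10 to 99 and 512 to 902 of all genes. Ccnd1 in shTet2 against shTet1 was lost with no filter as well. In shTet1 against shScr, 22 genes were called with the stricter filter, 22 with quantile normalisation and 3 with the 2 groups alone, and in shTet2 against shScr 45 with quantile normalisation and 39 with median centring, of which 5 were higher beside 43 of 76.

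The G1 median in shTet1 against shScr was −0.016 within replicates 1 and 2. Median centring moved the S phase and mitotic medians in shTet2 against shScr to −0.26 and −0.23, as it shifted the median of all genes. In shTet2 against shTet1, the G1 median ran from −0.20 to −0.014 and the mitotic median from −0.16 to 0.014 when 1 library was left out, and the latter was −0.14 within replicates 1 and 2. The cause of these shifts was not tested. Medians close to 0 (S phase and mitotic in shTet1 against shScr, G1 in shTet2 against shScr) changed sign in some fits by less than the spread between replicates. Differences of the single genes named by rule kept their direction in every alternative, with 9 instances of a gene coming to pass and 19 of one no longer passing. Depth limits the INK4 genes most, which had as few as 5 reads in a library.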
